A study of Carassius auratus with 10 samples.

Results

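The transcriptome described here is that of untreated radial glial cell (RGC) cultures of the goldfish, *Carassius auratus*, which the sample labels give as 4 control cultures of 10 in the series. Cells of the hypothalamus and telencephalon of adult female fish were dissociated with trypsin, grown in L-15 medium with fetal bovine serum and subcultured to passage 3. The other cultures, which are not compared here, received 1000 nM of the peptide SNa (3 cultures) or 10 µM of the dopamine D1 agonist SKF (3 cultures) for 24 h, while the controls are labelled untreated. All groups share the serum during growth, the passage number, the sex and the mixture of both brain regions. For the exposure, the study diluted the peptide in serum-free medium. It does not say which medium the controls had in those 24 h. How many fish gave each culture is not stated. The deposited tables hold a single pooled value per group and assembled transcript (unigene), so the control cultures cannot be told apart, no SD exists and no test between samples was possible. Which of the labelled controls entered the column is not stated in the table, and the study's own text gives a smaller number of control cultures than the labels. Abundance was therefore taken from the control column of the SNa comparison. Reads were summed over the unigenes that share a gene symbol and scaled to CPM, the reads of a gene per 1000000 reads of the column, which gave 17338 symbols.

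Radial glia line the ventricles of the vertebrate brain, send long processes to its surface and act as neural progenitors. They persist in large numbers in adult fish, where they are known for the intermediate filaments vimentin and GFAP, brain lipid-binding protein (Fabp7), the progenitor factor Sox2, Notch signalling and, in the teleost forebrain, brain aromatase. Glutamate uptake and the making of glutamine are further glial tasks. The goldfish genome carries an additional round of duplication compared with zebrafish, so that a zebrafish gene can have a pair of goldfish counterparts.

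The pool held 147886694 control reads on 164919 unigenes. The read numbers were recovered from the deposited values, all of which came out whole within 0.01 of a read. A level of 1 CPM corresponds to 148 reads. The floor of 3 reads lies at 0.0203 CPM. A pair of lanes was used for 3 of the 4 labelled control libraries and a single lane for the other, and the share of each in the pool is unknown. Unigenes with a symbol made up 30.7% of the unigenes and 81.2% of the reads. Unigenes that matched a protein but carried no symbol took 6.21% of the reads, and those without any protein hit took 12.6%. Names rest on zebrafish proteins for 98.0% of the reads on hits, at a read-weighted mean identity of 88.7%. A gene not found under its name may thus still lie on a unigene with another name or with none.

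Reads were concentrated on few genes. Of all symbols, 12873 (74.2%) reached 1 CPM, 7650 (44.1%) reached 10 CPM, 1307 reached 100 CPM and 102 reached 1000 CPM. The 10 most abundant symbols took 9.78% of all reads and the 100 most abundant took 26.5%. Only 337 symbols, 1.94% of the total, accounted for 50% of the named reads. The median symbol lay at 7.23 CPM, and 151 symbols had fewer than 3 reads. The plot of CPM against rank shows this fall over several orders of magnitude, with the 10 marker genes on its upper part.

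**Figure D1:**
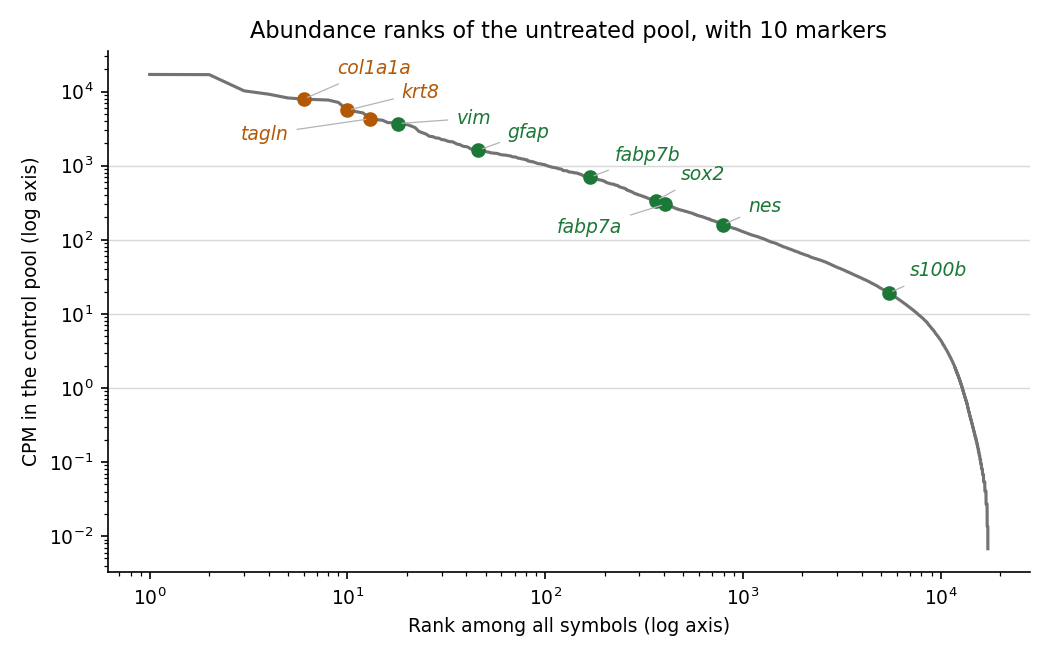
Abundance ranks of the control pool. Each point of the grey line is 1 of 17338 symbols, with its rank on the x axis and its CPM on the y axis (both log axes). Green points are genes used as glial or progenitor markers, and orange points are *col1a1a*, *krt8* and *tagln*. All 10 markers lie above 10 CPM, and the 3 orange points rank above *vim*, the most abundant of the green ones.

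All 10 markers chosen to describe the culture were detected at 10 CPM or more, where 44.1% of all symbols reached that level, and together they took 2.47% of the reads. These markers were given, not drawn at random from all symbols, so the share over all symbols is no test of them. *col1a1a*, a chain of type I collagen, stood at 7924 CPM (95% counting interval 7904 to 7944) and at rank 6. *krt8*, the type II keratin of simple epithelia, stood at 5602 CPM (5585 to 5619) and at rank 10. *tagln*, the smooth muscle actin-binding protein transgelin, stood at 4296 CPM (4281 to 4311) and at rank 13. Above every glial marker of the set, then, stood a collagen, a keratin and a contractile gene. The study, citing earlier work, states that more than 95% of cells in such cultures carry both GFAP and brain lipid-binding protein. Shares of reads do not measure that fraction of cells. In a pool of bulk cultures, it cannot be told whether filament, matrix, contractile and keratin transcripts came from the same cells or from different cells, nor can fewer cells of a type be told from less RNA per cell.

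The intermediate filaments used as glial markers followed, though in this pool it cannot be told which cells their reads came from. *vim* (vimentin) reached 3697 CPM (3683 to 3711), rank 18, on a single unigene that was 84.5% identical to its zebrafish protein. *gfap* (glial fibrillary acidic protein) reached 1622 CPM (1613 to 1631), rank 46, on 2 unigenes. *vim* was thus 2.28 times as abundant as *gfap* in reads and 2.22 times per kilobase of coding length. A further unigene named glial fibrillary acidic protein, without a symbol, held another 39.9 CPM. *nes* (nestin, the filament of neural progenitors) lay far below, at 160 CPM (157 to 163) and rank 792.

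The brain lipid-binding proteins were both well represented. *fabp7b* stood at 699 CPM (693 to 705), rank 169, and *fabp7a* at 303 CPM (299 to 307), rank 406. The ratio of *fabp7b* to *fabp7a* was 2.304, also per kilobase, since both proteins have the same length. *sox2*, a transcription factor of neural stem cells, stood at 335 CPM (331 to 339), rank 363. *s100b*, a calcium-binding protein of mature astroglia in mammals, was the least abundant of the 10, at 19.1 CPM (18.2 to 20.2), rank 5476. The counting intervals of neighbours in this order did not overlap, but the spread between cultures is unknown.

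Longer transcripts give more fragments, so levels of different genes were also compared as CPM per kilobase of coding length, taken as 3 bases for each amino acid up to the furthest position that a protein hit of the gene reached. On that scale the order of the 10 markers changed. *tagln* came first at 7196 CPM per kb, followed by *krt8* at 3591, *vim* at 2708, *col1a1a* at 1825 and *fabp7b* at 1764. *gfap* stood at 1218 CPM per kb, *fabp7a* at 766, *sox2* at 355, *s100b* at 67.2 and *nes* at 42.2. *col1a1a*, which encodes a long chain, lay 2.14 times above *vim* in reads but at 0.674 of *vim* per kilobase. However, the unigene with 98.1% of the *col1a1a* reads matched only positions 887 to 1447, while the divisor counted all 1447. The place of *col1a1a* below *vim* therefore depends on that divisor. *tagln* and *krt8* lay above *vim* on both scales. The median of all symbols was 5.01 CPM per kb, well below each of the 10, which were not drawn at random.

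**Figure D2:**
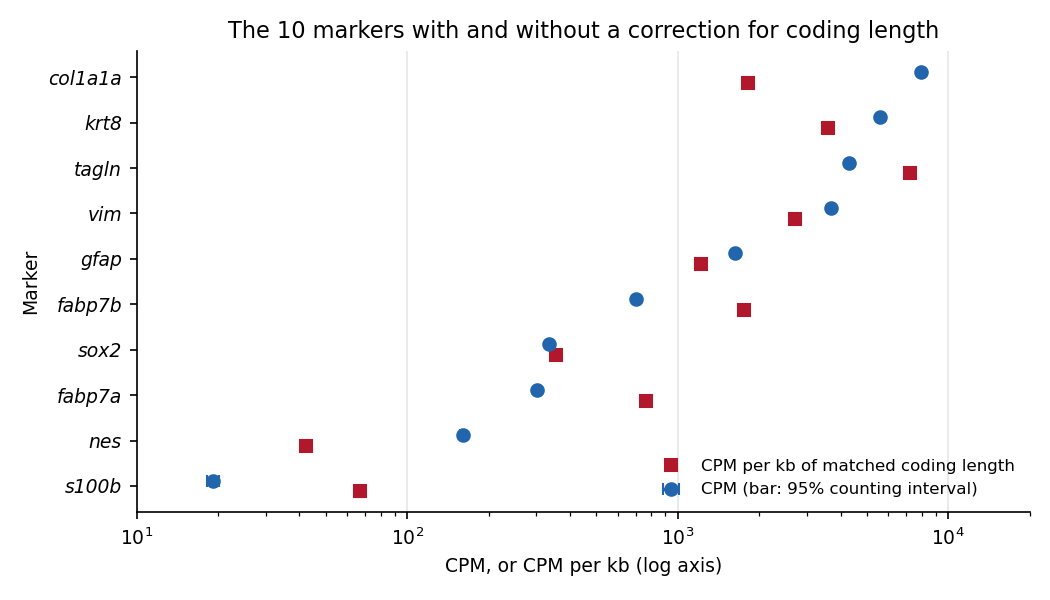
Levels of the 10 markers in the control pool on a log axis. Blue circles give CPM, with 95% counting intervals that are narrower than most symbols. Red squares give CPM per kb of coding length up to the furthest matched position, also where the leading unigene matched only part of it. *col1a1a* leads in CPM at 7924 and *tagln* leads per kb at 7196, while *nes* falls from 160 CPM to 42.2 CPM per kb.

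Among the 30 most abundant symbols that are not clone or locus names, which together took 15.7% of the reads, the largest group encoded parts of the cytoskeleton. *tmsb4x*, the actin-sequestering peptide thymosin beta 4, stood at 9221 CPM, *actb2* (beta-actin) at 7144 CPM, *flna* (filamin A, which crosslinks actin) at 5375 CPM and *acta2* (smooth muscle actin) at 3264 CPM. *tpm4a* (a tropomyosin) at 2898 CPM and *myl9a* (a myosin regulatory light chain) at 2152 CPM belonged to the same group, as did *tagln*. Per kilobase *tmsb4x*, whose protein has only 44 residues, led all symbols other than clone or locus names at 69857 CPM per kb.

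A matrix group came next. *fn1b* and *fn1a*, both encoding fibronectin, stood at 10240 and 3671 CPM. *col1a2*, the partner chain of *col1a1a*, stood at 4119 CPM, *sparc* (osteonectin, a collagen-binding protein) at 3587 CPM, *fstl1b* (a secreted follistatin-like protein) at 2369 CPM and *postnb* (periostin) at 2226 CPM. *anxa2a* (annexin A2) stood at 5149 CPM. The keratin partners *krt8* and *krt18* both ranked within the first 30, *krt18* at 2489 CPM.

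The remaining places went mostly to mitochondrial and housekeeping genes. The mitochondrially encoded *cytb*, *cox1* and *cox2*, parts of the respiratory chain, stood at 17028, 16938 and 8204 CPM and held ranks 1, 2 and 5. Translation was represented by *eef1a* at 7790 CPM, *eef2b* at 3431 CPM, *rps27a* at 2248 CPM and *rps2* at 2109 CPM. *hspa8*, a constitutive heat shock protein, reached 2668 CPM, *clu* (clusterin, an extracellular chaperone) 2351 CPM and *ctsla* (cathepsin L) 2102 CPM. *purb*, a nucleic acid-binding protein, stood at 3794 CPM and the transporter *abcg2c* at 2465 CPM. Some abundant names rest on short matches. The unigene called *cecr2* (1947 CPM) matched over only 36 amino acids, and a name from the tunicate *Oikopleura dioica* (4176 CPM) matched over 53 amino acids at 64.2% identity.

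Genes were next summed by lists of cell type markers, a symbol counting where it equalled an entry or the entry followed by a or b. The lists were chosen with earlier results of these data known. Shares over all symbols, given beside them here and below, are therefore descriptive and no test. The radial glia list had 38 entries, of which 9 were not found under those names, and matched 28 symbols. Of these, 23 (82.1%) reached 1 CPM, beside 74.2% of all symbols, and 13 reached 100 CPM, beside 7.54% of all symbols. Their median was 73.3 CPM, beside 7.23 CPM for all symbols, and their sum 12822 CPM (12796 to 12848), or 1.28% of the reads. *vim* alone held 3697 CPM of that sum.

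Secreted and transcriptional members of the list were abundant. *mdka*, which encodes the heparin-binding growth factor midkine, stood at 1854 CPM and rank 38, between *vim* and *gfap* in reads and, at 4754 CPM per kb, above both per kilobase. *id1*, an inhibitor of helix-loop-helix factors that is induced by BMP signals, stood at 1443 CPM. The leading unigenes of *her6*, *her4.2* and *her4.1* matched at 84.85%, 65.45% and 67.61% identity. The names *her4.2* and *her4.1* are thus less certain. So are some names given below, such as *cdh1* (66.67%), *scg2a* (64.71%), *bcan* (63.83%), *ccnb2* (59.62%), *gap43* (53.26%) and *ptprc* (36.17%). The Hes-type Notch targets *her6*, *her4.2* and *her4.1* stood at 935, 581 and 89.7 CPM, in that order. Their receptors were far lower in reads, with *notch3* at 26.6 CPM, *notch1b* at 26.6 CPM and *notch1a* at 0.575 CPM, or 3.69 CPM with protein descriptions, and lower still per kilobase, at 3.60 for *notch3* and 3.64 for *notch1b* against 933 for *her6*.

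Genes of glutamate handling were present with unequal copies. *slc1a3b*, the glutamate transporter GLAST, stood at 358 CPM (354 to 362), whereas *slc1a2b*, the transporter GLT-1, stood at 0.0270 CPM under its symbol and at 20.4 CPM once unigenes named only in the protein description were added. *glulb* (glutamine synthetase) stood at 329 CPM (325 to 333) and its paralog *glula* at 23.1 CPM. *slc1a3a* was found only through protein descriptions, at 8.91 CPM. In each of these pairs 1 copy carried most of the reads.

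Progenitor transcription factors other than *sox2* were lower. *pax6b* stood at 56.9 CPM and *sox9a* at 27.8 CPM, whereas their paralogs *pax6a* and *sox9b* stood at 1.197 and 0.379 CPM. *pax6a* stood at 22.1 CPM when unigenes named only in the protein description were counted. *hopx*, a marker of outer radial glia in mammals, reached 7.44 CPM. Of extracellular genes, *tnc* (tenascin C) stood at 225 CPM, *bcan* (brevican) at 85.9 CPM through protein descriptions only, and the receptor phosphatases *ptprz1b* and *ptprz1a* at 1.98 and 0.947 CPM. *gja1*, the gap junction protein connexin 43, stood at 18.5 CPM under a name that the list did not hold. The water channel *aqp4* and the GABA transporter *slc6a11b* were not found under those names.

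The neuronal list was at the other end of the range. It matched 13 symbols of 31 entries, and 7 of the 13 (53.8%) reached 1 CPM, beside 74.2% of all symbols. Their sum was 42.0 CPM (40.5 to 43.5), which is 0.00420% of the reads. The most abundant were *map2* at 11.8 CPM, *gap43* at 7.05 CPM, *gad1b* at 6.98 CPM and *stmn2a* at 6.89 CPM. The synaptic gene *snap25a* stood at 0.135 CPM and the RNA-binding genes *elavl4* and *elavl3* at 1.26 and 0.0947 CPM, while *syn1*, *tubb3* and *dcx* were not found under those names. The summed radial glia list was 306 times the neuronal list in CPM and 478 times per kilobase. These ratios compare sums of chosen lists and do not measure glial against neuronal cells. Of the 31 neuronal entries, 18 were not found under their names.

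Lists for other glia and for blood-derived cells were low apart from single genes. The oligodendrocyte lineage list summed to 66.6 CPM, with *cnp* at 44.9 CPM and *mbpb* (myelin basic protein) at 16.2 CPM, while *sox10* and *plp1a* stood at 0.663 and 0.379 CPM. The sum rose to 275 CPM with protein descriptions, of which *cnp* added 206 CPM. In the microglia and macrophage list, *apoeb* (apolipoprotein E), a gene that glia other than microglia also express, held 587 of 674 CPM. Next in that list came *cd74a* at 28.5 CPM, *aif1l* at 23.0 CPM, *cd74b* at 10.6 CPM and *lygl1* at 9.40 CPM. The leukocyte genes *irf8*, *coro1a* and *ptprc* stood at 9.12, 3.86 and 1.72 CPM, and *lcp1* at 0.0270 CPM. The blood and lymphoid list summed to 4.25 CPM, with the globin *hbaa1* at 0.845 CPM.

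The fibroblast and mesenchyme list had the largest sum of the cell type lists in CPM, though per kilobase the mural and smooth muscle list, at 20245 CPM per kilobase, was above it. The fibroblast list matched 29 symbols, of which 25 (86.2%) reached 1 CPM and 18 reached 100 CPM, with a median of 238 CPM, while 74.2% and 7.54% of all symbols reached these levels. Its sum was 39417 CPM (39372 to 39461), or 3.94% of the reads, which is 3.07 times the radial glia list. Summed per kilobase of coding length the lists came to 19736 and 18664, a ratio of 1.06. The leading unigenes of *col1a1a*, *col1a2* and *fn1a* matched only from positions 887, 809 and 2252 onward, while the divisor counted the full reach. In the mural list this held for *acta2*, matched from position 114. The per-kilobase comparisons of these lists therefore depend on that divisor, and length alone cannot be read from them. Beside the genes already named, *s100a10b*, the partner of annexin A2, stood at 1816 CPM, *pcolcea* (procollagen processing) at 1403 CPM, *dcn* (decorin) at 630 CPM, *mmp2* at 611 CPM and *lum* (lumican) at 238 CPM. Genes that define connective tissue cells were uneven. The mesenchymal factor *prrx1a* stood at 327 CPM and *thy1* at 257 CPM, whereas the receptor *pdgfra* stood at 0.304 CPM, *fap* at 0.270 CPM and *tcf21* at 0.0676 CPM.

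Contractile genes summed to 13358 CPM in the mural and smooth muscle list, close to the radial glia list in reads (ratio 1.04) and per kilobase (1.08). *tagln*, *acta2*, *myl9a* and *myl9b* led it, *myl9b* at 1623 CPM, followed by *tagln2* at 826 CPM and *tpm1* at 650 CPM. *cnn1b* (calponin) stood at 359 CPM through protein descriptions. Like *cnn1b*, the other markers more often used for pericytes and differentiated smooth muscle lay below *tpm1*, over a wide range. *lmod1b* stood at 150 CPM, *mylka* at 129 CPM, *myh11a* at 61.7 CPM and *pdgfrb* at 38.9 CPM. *desmb* (desmin) and *abcc9* stood at 3.46 and 0.0473 CPM. *rgs5b*, a regulator of G-protein signalling, stood at 116 CPM, and its paralog *rgs5a* at 0.0676 CPM.

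The keratin and epithelium list summed to 9583 CPM, nearly all of it from *krt8*, *krt18* and *krt4* (1012 CPM). Junction genes were present, with *dspa* (desmoplakin) at 194 CPM and *jupa* (plakoglobin) at 174 CPM. The other members of the list lay lower and were uneven. *cldna* stood at 48.1 CPM, *krt17* at 23.9 CPM and *krt94* at 20.1 CPM. *epcam* stood at 0.690 CPM, *cldn7b* at 4.75 CPM, the basal keratin *krt5* at 0.0541 CPM and *tp63* at 2.53 CPM, and *cdh1* (E-cadherin) reached 27.9 CPM only through protein descriptions. Outside the list, *cdh2* (N-cadherin) stood at 708 CPM, and the integrins *itgb6*, *itgb4* and *itga6a* at 522, 429 and 336 CPM.

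Of the genes used for the labelled cell type, *vim*, *gfap*, *fabp7b*, *sox2* and the Notch target *her6* were abundant. Alongside them stood abundant matrix, contractile and keratin transcripts and few neuronal ones. Other genes of radial glia were low, such as *s100b* at 19.1 CPM, *hopx* at 7.44 CPM and brain aromatase at 1.62 CPM.

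**Figure D3:**
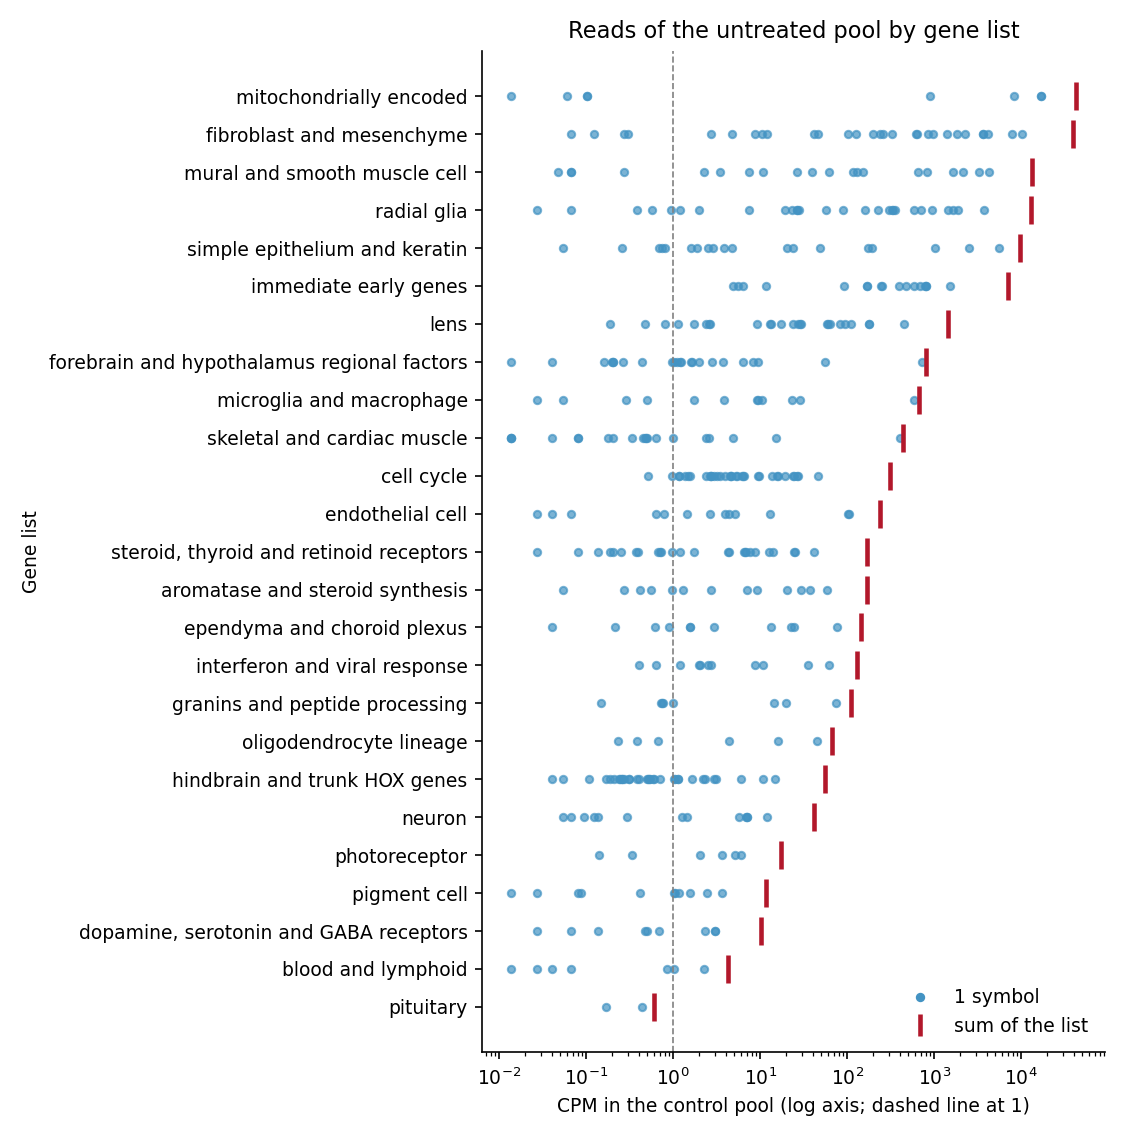
CPM of each matched symbol (blue points) and the sum of each of 25 gene lists (red bars) in the control pool, on a log axis, ordered by sum. The dashed line marks 1 CPM. Sums run from 43071 CPM for mitochondrially encoded genes and 39417 CPM for the fibroblast list down to 42.0 CPM for the neuron list and 0.602 CPM for the pituitary list. In the regional factor, microglia and skeletal muscle lists a single point lies next to the sum.

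Endothelial, ependymal and other tissue lists held individual genes of note. The endothelial list summed to 239 CPM, of which *cldn5a* (a tight junction claudin) and *flt1* (a VEGF receptor) held 104 and 103 CPM. The endothelial cadherin *cdh5* stood at 0.784 CPM and *tie1* at 0.0270 CPM. The ependyma and choroid plexus list summed to 144 CPM, led by *rfx2* at 76.8 CPM, *otx2* at 24.3 CPM, *rfx3* at 22.5 CPM and *ccdc151* at 13.2 CPM, while *foxj1a*, the master factor of motile cilia, stood at 2.91 CPM and its paralog *foxj1b* at 0.216 CPM. Skeletal and cardiac muscle genes summed to 435 CPM, with the actin *acta1a* at 406 CPM and the next gene, *tnnt3b*, at 15.1 CPM. Actin coding sequences are very alike, so the split of reads between *acta1a*, *acta2* and the beta-actins is uncertain. Photoreceptor, pigment cell and pituitary lists summed to 17.3, 11.5 and 0.602 CPM.

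Lens genes formed a separate group. Of 25 symbols matched, 22 (88.0%) reached 1 CPM and 16 reached 10 CPM, levels that 74.2% and 44.1% of all symbols reached, with a sum of 1439 CPM. The beta-crystallins *crybb2* and *crybb1* stood at 446 and 176 CPM, *crygmx* at 176 CPM and *cryba1b* at 111 CPM, and *crygm2d12*, which the list did not hold, stood at 652 CPM. The lens membrane genes *lim2.3*, *lim2.5* and *mipa* stood at 62.7, 59.8 and 29.1 CPM. The alpha-crystallins *cryaa*, *cryaba* and *cryabb* stood at only 1.15, 1.74 and 0.805 CPM.

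Regional identity was read from transcription factors. Of 23 forebrain and hypothalamus factors found, 14 (60.9%) reached 1 CPM, beside 74.2% of all symbols, and 1 gene held most of the reads. *six3b*, a factor of the rostral forebrain and eye field, stood at 714 CPM and rank 161, while its paralog *six3a* stood at 8.19 CPM. *fezf1*, a factor of the forebrain and hypothalamus, stood at 55.6 CPM, *nkx2.4b*, a hypothalamic factor, at 9.48 CPM and *dlx2a* at 6.37 CPM. The telencephalic genes *foxg1a*, *foxg1b* and *emx2* stood at 1.97, 1.64 and 2.81 CPM, and *nkx2.1* at 1.03 CPM. HOX genes, which mark hindbrain and trunk, had a lower sum than the forebrain list, whose 813 CPM lay mostly on *six3b*. Of 34 found, 12 (35.3%) reached 1 CPM, beside 74.2% of all symbols, and their sum was 55.5 CPM. The most abundant were *hoxd10a* at 14.9 CPM, *hoxb9a* at 10.7 CPM, *hoxb7a* at 6.05 CPM and *hoxa9b* at 3.12 CPM. Each of these lay above *foxg1a*, *foxg1b* and *emx2*.

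Genes for local hormones of radial glia were mostly scarce. Brain aromatase, the enzyme that makes estrogen in teleost radial glia, was found on 1 unigene under the symbol *cyp19a1*, with 240 reads or 1.62 CPM, although its protein matched at 99.6% identity over 510 amino acids. The ovarian form *cyp19a1a* stood at 0.419 CPM and *cyp19a1b* was not found under that name. Of other steroid genes, *hsd17b12b* at 58.0 CPM, *srd5a2a* (a steroid reductase) at 37.6 CPM, the translocator *tspo* at 29.8 CPM and *hsd17b4* at 20.5 CPM were detected, while *star* and *cyp11a1*, the entry steps of steroid synthesis, stood at 0.554 and 0.0541 CPM. *scg2a*, the precursor gene of SNa, was found only through protein descriptions, at 27.9 CPM and 64.7% identity, and *scg2b* stood at 0.744 CPM. Of granin-related genes, *pcsk1nl* stood at 73.7 CPM, *scg3* at 20.015 CPM and *cpe* at 14.5 CPM, whereas the convertases *pcsk1* and *pcsk2* stood at 0.717 and 0.764 CPM.

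Few receptors for dopamine, serotonin and GABA were found under the listed names. Among 41 entries, 9 symbols were found and 3 of these (33.3%) reached 1 CPM, beside 74.2% of all symbols. They were led by *gabbr1a* at 3.06 CPM and *htr6* at 3.05 CPM. No symbol of the *drd1* family was found under those names, and *drd4b* was the only listed dopamine receptor found, at 0.5004 CPM (74 reads). The study itself reports D2 and D4 receptors in its RGC transcriptome and cites earlier work on D1 receptor activation in RGCs. Of 26 nuclear receptors found, 14 (53.8%) reached 1 CPM, beside 74.2% of all symbols. *pgr*, the progesterone receptor, led at 41.0 CPM, followed by the glucocorticoid receptor *nr3c1* at 25.1 CPM, *rxrba* at 24.5 CPM and *rarab* at 14.2 CPM. The estrogen receptors *esr2b*, *esr1* and *esr2a* stood at 8.73, 0.730 and 0.0270 CPM, and the androgen receptor *ar* at 0.663 CPM.

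Proliferation genes were widespread at modest levels. Of 34 cell cycle symbols, 32 (94.1%) reached 1 CPM, beside 74.2% of all symbols. Only 9 reached 10 CPM, a level that 44.1% of all symbols reached, and none reached 100 CPM. These counts include *rrm2b* at 13.6 CPM, a separate gene that entered only because its name is the entry *rrm2* followed by b. *ccnd2a* (cyclin D2) led at 46.7 CPM, followed by the replication genes *mcm7* at 27.0 CPM and *pcna* at 24.4 CPM, with *ccnb2* between them at 26.2 CPM. The proliferation marker *mki67* stood at 6.58 CPM and *cdk1* at 9.76 CPM. Immediate early genes, by contrast, were abundant in the control pool, whose medium in the last 24 h is not stated. All 17 found reached 1 CPM and 12 reached 100 CPM, levels that 74.2% and 7.54% of all symbols reached. Their sum was 7014 CPM, but 3842 CPM where the unigene with the most reads stood for a symbol and 4463 CPM where only hits of at least 80% identity counted. *fosab* stood at 1529 CPM and rank 51, *fosb* at 808 CPM, *fosl2* at 806 CPM and *junba* at 773 CPM, *egr1* stood at 688 CPM, and *junbb* was found only through protein descriptions, at 1597 CPM. Of 11 interferon and viral response symbols, 9 (81.8%, beside 74.2% of all symbols) reached 1 CPM, with *stat1a* at 62.1 CPM, *irf7* at 35.1 CPM and *ifih1* at 10.7 CPM, while *mxa* and *rsad2* stood at 0.642 and 0.406 CPM.

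By gene family, cytosolic ribosomal proteins took the largest share of the named families, 6.62% of the reads over 76 symbols. They lay in a narrow range, all 76 between 241 and 2248 CPM, with a median of 810 CPM and quartiles of 570 and 1043 CPM. Actin and actin-binding genes took 5.02%, matrix glycoproteins and proteases 3.08%, elongation and initiation factors 2.22% and collagen chains 1.79%. The mitochondrially encoded list took 4.31%, carried by *cytb*, *cox1*, *cox2* and *nd1* (901 CPM), while nuclear genes of the respiratory chain and ATP synthase took 0.693%. Other mitochondrial genes, such as *cox3* and *atp6*, were not found under the listed names. *nd2* and *nd4* stood at 0.101 and 0.0135 CPM, on matches of only 33.0% and 38.5% identity. Reads of these genes may lie on unigenes with other names or none, so 4.31% may fall short of the mitochondrial share.

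Within families a few members carried most of the reads. Of 43 collagen chains, 14 reached 100 CPM, a level that 7.54% of all symbols reached. After the type I chains, *col5a1* stood at 856 CPM, the basement membrane chain *col4a2* at 851 CPM and *col12a1b* at 798 CPM. Of 13 keratins, 3 reached 100 CPM, beside the same 7.54% of all symbols. In the matrix family, *ctgfa* (connective tissue growth factor) stood at 1311 CPM and *thbs4b* (a thrombospondin) at 725 CPM. Integrin genes were led by *itgav* at 1130 CPM and *itgb1b* at 1063 CPM, and *ctnnb1* (beta-catenin) stood at 1395 CPM. Of glycolytic genes, *gapdhs* stood at 1807 CPM, *eno1a* at 1353 CPM and *pkma* at 820 CPM, and the brain form of aldolase, *aldocb*, at 491 CPM stood above *aldoaa* at 192 CPM. Lysosomal genes took 0.528%, led by *ctsla* and, at 640 CPM, *laptm4a*. The antioxidant *prdx6* and the ferritin subunit *fth1a* stood at 707 and 513 CPM. Of tubulins, *tuba8l4* stood at 2025 CPM and *tubb4b* at 650 CPM.

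**Figure D4:**
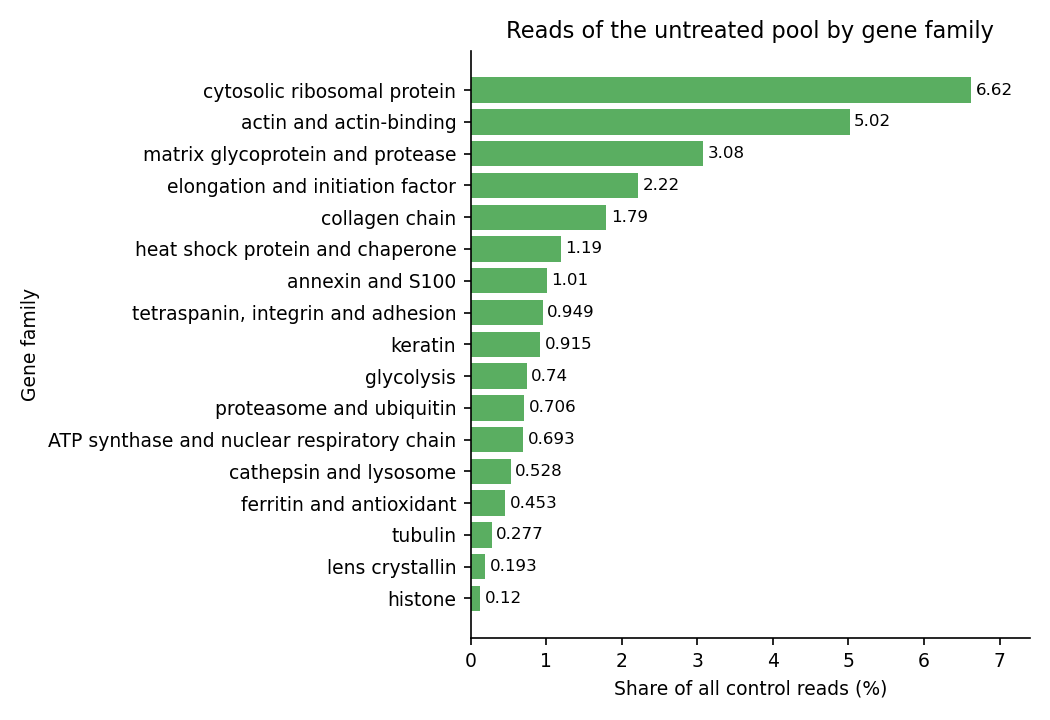
Share of all control reads (%, linear axis from 0) taken by each of 17 gene families, selected by symbol. Cytosolic ribosomal proteins take 6.62% and actin and actin-binding genes 5.02%, and histones take the least.

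Many genes were spread over more than 1 unigene, as the sums above imply. Of 6866 symbols at 10 CPM or more, clone names aside, 3341 had 1 unigene covering at least 80% of the protein length reached, 1929 (28.1%) had exactly 2 and 784 had more. In the 1929 pairs the less abundant unigene held a median of 42.0% of the pair's reads (quartiles 33.1% and 46.8%). It held 40% or more in 1103 pairs (57.2%) and under 10% in 57 pairs (2.95%). Within these pairs the reads were thus usually split fairly evenly. Unigenes covering less than 80% of that length were not counted, so pairs with a copy assembled only in part are missing. How reads that match both unigenes were assigned is not stated, so the split need not equal the expression of each.

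Several of the genes described above were such pairs. The less abundant unigene held 41.7% of the reads of *gfap*, 47.3% of *sox2*, 36.7% of *fabp7a*, 49.9% of *her6*, 49.9% of *six3b*, 45.3% of *id1* and 45.4% of the *slc1a3b* pair. It held 49.8% of *fn1b* and 45.5% of *anxa2a*, but 28.1% of *ccnd2a* and 4.99% of *s100a10b*, where the minor unigene matched at only 36.9% identity. The pair matched the zebrafish protein with the same percent identity in 401 of the 1929 cases (20.8%), *gfap*, *sox2*, *her6* and *six3b* among them, and the median minor share there was 44.2%, beside 41.2% in the other pairs. In 1660 pairs (86.1%) the unigenes came from different stretches of the unigene numbering, which has 3 separate runs of high values. Unigenes paired without regard to their symbol would also often fall in different stretches. That background share was not computed, so the count alone does not show an excess. The median minor share was 42.1% in these 1660 pairs and 41.0% in the 269 pairs within 1 stretch. Duplicated genes, alleles, isoforms and the same transcript assembled more than once cannot be told apart from these tables.

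**Figure D5:**
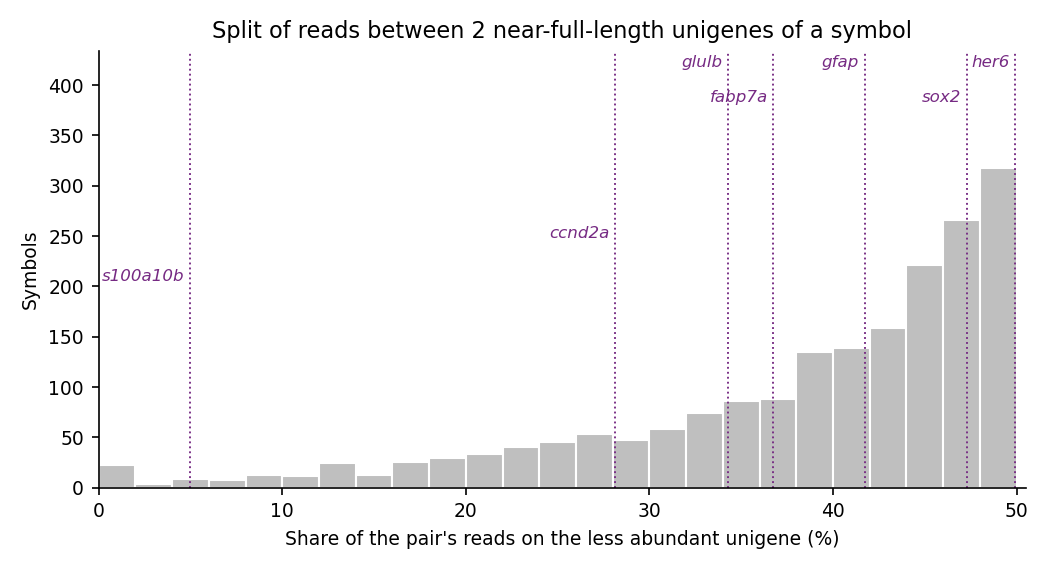
Histogram of the share of reads (%) on the less abundant of 2 near-full-length unigenes of a symbol, over 1929 symbols at 10 CPM or more, with 7 genes marked by dotted lines. The bars rise toward 50%, the median is 42.0%, and the marked genes run from *s100a10b* at 4.99% to *her6* at 49.9%.

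Unigenes without a symbol also held abundant transcripts. Through the protein descriptions, *hsp90ab1* (a constitutive heat shock protein) stood at 2382 CPM, *oaz1b* (ornithine decarboxylase antizyme) at 942 CPM, *pdia3* and *p4hb* (disulfide isomerases of the endoplasmic reticulum) at 811 and 587 CPM, and *vcana* (versican) at 370 CPM. An inositol-3-phosphate synthase, matched to carp, stood at 1527 CPM on 1 unigene. Of 101134 unigenes without a protein hit, 14041 reached 1 CPM, 93 reached 100 CPM and 3 reached 1000 CPM. The most abundant of these stood at 2667, 2207 and 1092 CPM.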

How the data were processed

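RNA of cultured goldfish RGCs was sequenced as paired-end, poly(A)-selected libraries on an Illumina HiSeq. The authors trimmed the reads, assembled pooled replicates with Trinity, clustered contigs with CD-HIT and matched unigenes to chordate proteins with BLASTX. The sources used here do not name a read counter or a version of DESeq. Each deposited expression signal is the read number of a whole group on a unigene after the authors scaled it with a size factor from DESeq. The deposited percent identity is that of the best protein hit.

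Python 3.11.15, pandas 2.3.3 and scipy 1.17.1 were used. Each value was divided by the smallest, which stands for 1 read. The first word of the gene name, in lower case, was the symbol. Exact (Clopper-Pearson) 95% intervals were computed on reads divided by 2, since 74.8% of values were even, and with the floor of 3 reads they cover counting error only. Sums and intervals were tested on simulated data, in which the smallest value was set to 1 read and each fragment gave exactly 2 reads. Those assumptions were thus not tested themselves. The text names the 10 given markers, the 30 most abundant symbols, up to 4 members of each of 25 lists and 17 families, defining members of low level and genes the study names. Further members, genes found through protein descriptions and the pairs of unigenes were named after their values were seen. Members and lists were chosen with earlier results of these data known. Treated values, fold changes and p-values, which the deposited tables also hold, were not used, and no test was run.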

Additional observations from a re-analysis of the deposited data

How the results depend on the processing

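The order of the 10 markers stayed the same with zebrafish proteins only, with unigenes of at least 10 reads and with symbols from protein descriptions. The last of these alternatives was chosen after seeing the data. The order could not change with named reads as the denominator or with mitochondrial genes left out, which scale all markers alike. Nor could it change without clone names, which leaves the markers as they are. The control column of the SKF comparison held equal reads on 100% of the unigenes, so it was no separate check. *sox2* and *fabp7a* changed places when the unigene with the most reads stood for a symbol, *nes*, whose only unigene matched at 67.5%, was lost at an identity of at least 80%, and the joining of a and b copies put *fabp7a* and *fabp7b* together above *sox2*. Per kilobase, also chosen after seeing the data, 12 of the 30 most abundant nuclear symbols stayed among the first 30. The radial glia list summed to 9985 CPM with the unigene of most reads, 11974 CPM at an identity of at least 80%, 13399 CPM without mitochondrial genes, 15786 CPM of named reads and 12961 CPM with protein descriptions. The fibroblast list summed to 31059, 36708, 41191 and 48528 CPM in the first 4 of these settings. With a limit of 10 CPM in place of 1 CPM, 1 neuronal symbol was detected. Of 78 list, family and gene levels, 27 fell by more than 1.5 times with the unigene of most reads. The other denominators multiplied every level that remained by the same 1.2312 (named reads) or 1.045 (mitochondrial genes left out). With them no level could fall by more than 1.5 times. At an identity of at least 80%, 4 of the 76 levels that remained fell by that much. *nes* and *clu*, the latter with a single unigene at 73.1% identity, were lost there and are not in that count. The cell cycle sum rose from 308 to 492 CPM with joined copies, since the joined names brought in reads of genes that the list did not hold. The alternatives without each control culture and by unigene length were not run, since cultures are pooled and no unigene lengths were used here. No paired analysis was possible because the values are pooled over cultures.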

Other observations

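A pair of unigenes matched a protein named Protein A of the coral snake *Micrurus fulvius* at 100% identity over 522 amino acids each, where the median identity over all unigenes with a hit was 84.4%. They stood at 1673 and 1662 CPM, together 0.334% of the control reads. Whether these reads came from goldfish RNA was not tested. A further unigene, matched to the bat *Desmodus rotundus* at 66.7% identity over 57 amino acids, stood at 4066 CPM. These were chosen for their values.

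Transcripts of mobile elements were detected. Unigenes named as reverse transcriptase, ORF2 or retrotransposon proteins numbered 641 and summed to 1725 CPM, of which the single most abundant held 628 CPM. Unigenes named as transposases numbered 97 and summed to 38.1 CPM.

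The median number of control reads per unigene, taken over 10000 unigene numbers at a time, ran from 8 to 486. It peaked at 486 from number 20000, at 359 from number 80000 and at 422.5 from number 130000, with medians of 8 to 15 in most stretches between them.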
